A study of Homo sapiens with 8 samples.

Results

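Some probe sets of an expression array carry the names of several genes at once, and their single value cannot be given to any 1 of those genes. The array used here summarises its probes by transcript cluster, a stretch of transcribed sequence that is given 1 value per array. The members described below are the 1119 transcript clusters, of 135750 that are not array controls, whose probe annotation holds 2 or more gene symbols. Of these, 908 held 2 symbols, 141 held 3 and 70 held 4 or more, up to 20. Together they named 2334 different symbols, of which 1905 were found in no cluster of their own, so that these rows are their sole readout on the array. Each row is therefore called below by its whole set of names.

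RNA came from HBL-1 and BJAB, both established human lines of B-cell lymphoma, kept for 6 h with a ligand at 1 µg/ml and measured on 8 Affymetrix arrays. The 4 groups of 2 arrays were HBL-1 with APRIL, HBL-1 with EDA, BJAB with APRIL and BJAB with EDA. Diffuse large-cell lymphoma of the activated B-cell kind is modelled by HBL-1, while BJAB is mostly counted among germinal-centre lines. APRIL (TNFSF13) binds the receptors BCMA and TACI, and EDA (ectodysplasin A), which also belongs to the TNF ligands but binds EDAR and EDA2R, is the control in the labels. No array was of cells without a ligand, each line stands for 1 tumour, and separate cultures for the arrays of a group are not stated in the labels, so the p-values measure a spread that may be technical. The B-cell markers CD79A and CD79B lay between 15.5 and 16.8 on the log2 scale in both lines. MS4A1, which encodes CD20, averaged 10.08 in HBL-1 and 12.70 in BJAB. Markers of myeloid cells (CD14, CSF1R, LYZ, FCGR3A) lay between 3.5 and 5.4, near the median of all rows, 4.81. The T-cell gene CD3G averaged 5.12 in HBL-1 and 11.42 in BJAB, and CD3D averaged 3.96 in HBL-1 and 5.69 in BJAB. CD3E averaged 6.73 in HBL-1 and 7.82 in BJAB, and CD247 averaged 6.64 in HBL-1 and 6.16 in BJAB. The collagen genes COL1A1 (10.05 in HBL-1 and 9.19 in BJAB) and COL1A2 (9.89 in HBL-1 and 8.16 in BJAB), markers of stromal cells, were brighter than the epithelial markers EPCAM (5.76 in HBL-1 and 4.14 in BJAB) and KRT8 (7.44 in HBL-1 and 7.51 in BJAB). The part of these markers in the results was not tested.

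A cluster takes several names for a few reasons. Many microRNAs are cut from the introns or exons of a longer host transcript, so the host and the microRNA share a position. Duplicated genes, such as cancer-testis families and defensins, can be nearly identical in sequence. Readthrough transcripts join neighbouring genes into 1 RNA, and immunoglobulin segments lie side by side at 1 locus, from which each B cell joins a few. Among the members, 350 named a longer gene with a small RNA, 285 named genes with a shared symbol root, 193 named neighbouring genes and 128 named small RNAs alone. Another 56 named a readthrough transcript with its parts, 31 gave several names that RefSeq lists for 1 gene, 29 named an antisense or intronic transcript, 16 named immunoglobulin or T-cell receptor segments and 31 fell in none of these kinds. A microRNA stood beside a longer gene in 264 rows, and in 238 of them (90.2%) every microRNA named lay inside the span of a longer gene of the row in RefSeq (GRCh38.p14).

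The mature microRNAs below belong to the host rows and immune rows on which the results turn. The sequences are those of RefSeq on GRCh38.p14, written 5′ to 3′, with the seed (bases 2 to 8), by which a microRNA pairs with its targets, in capitals. The array labels give no genome build, so positions are those of RefSeq and not of the probes.
hsa-miR-9-5p from MIR9-3 (chr15:89368032-89368054, plus strand): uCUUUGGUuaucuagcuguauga
hsa-miR-9-5p from MIR9-2 (chr5:88666902-88666924, minus strand): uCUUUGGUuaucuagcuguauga
hsa-miR-155-5p (chr21:25573983-25574006, plus strand): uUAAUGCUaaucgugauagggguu
hsa-miR-195-5p (chr17:7017667-7017687, minus strand): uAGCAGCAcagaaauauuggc
hsa-miR-497-5p (chr17:7017979-7017999, minus strand): cAGCAGCAcacugugguuugu
hsa-miR-17-5p (chr13:91350618-91350640, plus strand): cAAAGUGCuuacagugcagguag
hsa-miR-20a-5p (chr13:91351072-91351094, plus strand): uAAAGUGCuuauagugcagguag
hsa-miR-18a-5p (chr13:91350756-91350778, plus strand): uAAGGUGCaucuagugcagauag
hsa-miR-19a-3p (chr13:91350939-91350961, plus strand): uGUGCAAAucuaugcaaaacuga
hsa-miR-19b-3p (chr13:91351245-91351267, plus strand): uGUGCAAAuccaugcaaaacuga
hsa-miR-92a-3p (chr13:91351361-91351382, plus strand): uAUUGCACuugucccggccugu
hsa-miR-5196-5p (chr19:35345541-35345562, plus strand): aGGGAAGGggacgaggguuggg
hsa-miR-4632-5p (chr1:12191713-12191735, plus strand): gAGGGCAGcguggguguggcgga
hsa-miR-7846-3p (chr1:12167010-12167030, plus strand): cAGCGGAGccuggagagaagg
hsa-miR-378i (chr22:41923271-41923291, minus strand): aCUGGACUaggagucagaagg
MIR9-2 and MIR9-3 lie on different chromosomes and give the same mature sequence. miR-17-5p and miR-20a-5p share the seed AAAGUGC, miR-19a-3p and miR-19b-3p share GUGCAAA, and miR-195-5p and miR-497-5p share AGCAGCA. MIR5196 lies inside CD22, MIR378I inside TNFRSF13C and MIR4632 inside TNFRSF1B, while the hairpin of MIR7846 begins 48 bases before the lower end of TNFRSF1B. The rows measure labelled RNA of the cluster as a whole, and whether a mature microRNA was made from it was not measured.

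The lines differed widely in these rows. By the limma fit 290 of 1119 rows passed at the adjusted threshold of 0.05, 203 of them by at least 2-fold. HBL-1 was higher in 139 and lower in 151. Over all rows 8.73% passed (4.31% higher and 4.42% lower). By at least 2-fold, 7681 of all 135750 rows passed, and 4433 of the 36176 rows with 1 symbol. The members were brighter than the rest, with a median level of 6.98 against 5.61 for rows with 1 symbol and 4.61 for rows with none. In rows with 1 symbol 18.2% passed, against 25.9% of the members. By level the order of these shares was not the same throughout. Below level 5, 16 of 294 members passed (5.44%), against 2.00% of rows with 1 symbol, and between levels 5 and 8, 78 of 364 did (21.4%), against 18.1%. Between levels 8 and 11, 102 of 203 members passed (50.2%), against 43.3% of rows with 1 symbol, and at level 11 and above 94 of 258 did (36.4%), against 41.0%. The median difference of the members was 0.02, beside 0.06 over all rows. The mean level of 473 members lay above the 95th percentile of the array's negative controls, 7.92, and signal in a dimmer row cannot be told apart from background by level alone. The same holds for the dimmer line of a row, and a difference against such a line has no firm size.

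**Figure D1:**
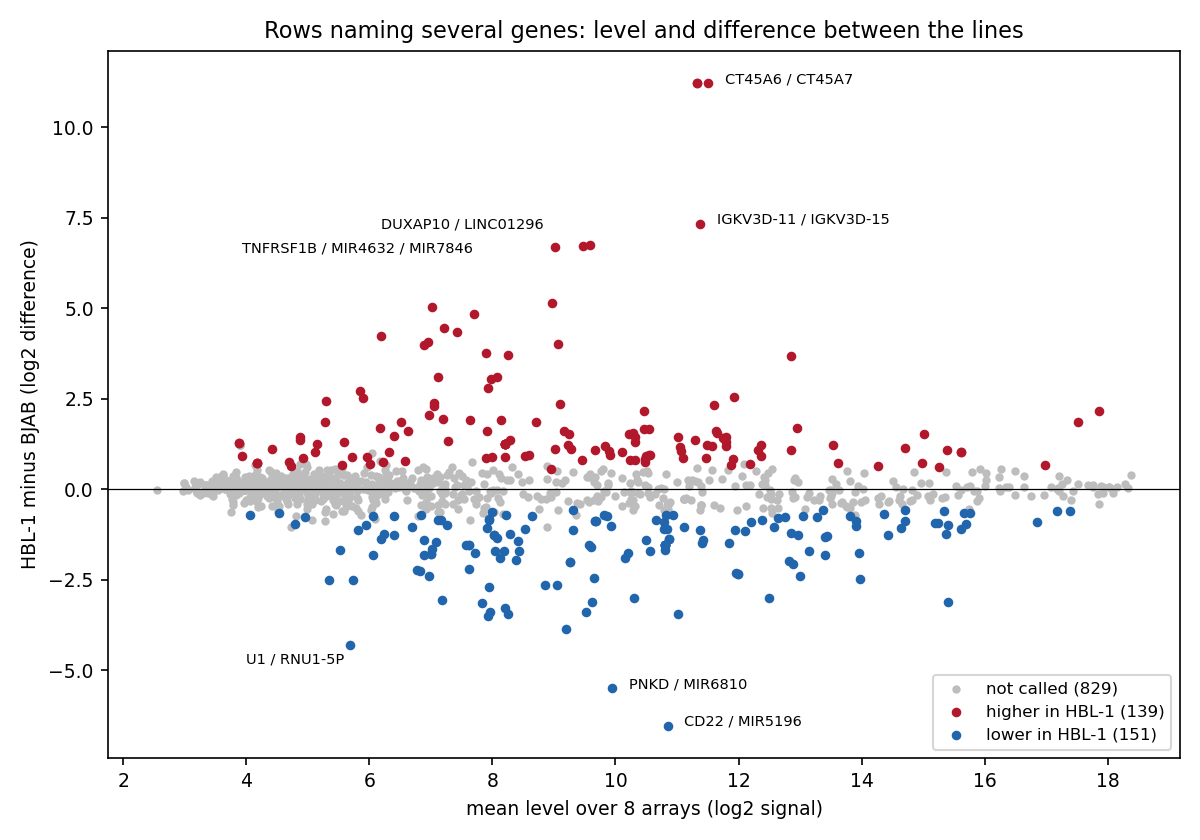
Each point is 1 of the 1119 rows naming several genes, with its mean level over 8 arrays (log2 signal) on the x axis and HBL-1 minus BJAB (log2 difference) on the y axis. Red points (139) passed with a higher and blue points (151) with a lower level in HBL-1, and grey points were not called; the CT45A rows lie near 11.2 and the CD22 row at -6.54.

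Cancer-testis genes, whose protein products are normally limited to the testis and to tumours, gave the largest fitted excess in HBL-1 of the 1119 rows. The row naming CT45A6 and CT45A7 was at 17.18 and 17.21 in HBL-1 with APRIL and 16.98 and 17.09 with EDA, against 5.94 and 7.02 in BJAB with APRIL and 5.87 and 4.76 with EDA. The HBL-1 arrays lay close together and far above every BJAB array. The fitted difference was 11.22 (adjusted p = 2.8e-08), as in the row naming CT45A3, CT45A4 and CT45A5. The BJAB means, 5.90 and 5.71, lay under the 95th percentile of the negative controls, so the sizes and their rank rest on levels that cannot be told apart from background. CT45A genes are near-identical copies, so how much each copy gives cannot be told apart. MAGEA9 and MAGEA9B, a second cancer-testis pair, share 2 rows with different values, one averaging 9.55 ± 0.26 in HBL-1 and 4.50 ± 0.31 in BJAB (SD, n = 4 arrays per line) and the other 8.20 ± 0.57 in HBL-1 and 5.90 ± 0.15 in BJAB. Their differences were 5.04 and 2.30.

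The row naming TNFRSF1B, MIR4632 and MIR7846 had the largest fitted excess in HBL-1 among the 29 rows of immune genes that are read in no row of their own. TNFRSF1B encodes TNF receptor 2, a receptor of the family to which the APRIL receptors belong. The row was at 12.31 and 12.88 in HBL-1 with APRIL and 12.14 and 12.11 with EDA, against 5.14 and 5.54 in BJAB with APRIL and 6.02 and 5.95 with EDA. Every HBL-1 array lay above 12 and every BJAB array near 6 or lower. The fitted difference was 6.70 (SE 0.18, adjusted p = 3.5e-08), against a BJAB mean of 5.66 that lay under the 95th percentile of the negative controls. TNFRSF1A, the other TNF receptor, has a row of its own and was lower in HBL-1, at 7.70 against 9.70 in BJAB (difference -2.00, adjusted p = 0.0013).

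The other rows with a large excess in HBL-1 came from several kinds. The row naming the pseudogene DUXAP10 and LINC01296 averaged 12.94 ± 0.14 in HBL-1 and 6.21 ± 0.60 in BJAB (SD, n = 4, difference 6.73). LY75, an endocytic receptor also called DEC-205, its neighbour CD302, a C-type lectin, and their readthrough LY75-CD302 share a row with means of 10.12 ± 0.39 in HBL-1 and 5.30 ± 0.22 in BJAB (difference 4.82). MEAF6P1 with PKP4P1, both pseudogenes, differed by 4.46. NSG1, a protein of endosomal vesicles in neurons, and its older name D4S234E differed by 4.24. TMCC3 with MIR7844 differed by 4.07, and SNX8, a sorting nexin of endosomes, with MIR6836 averaged 11.07 ± 0.44 in HBL-1 and 7.07 ± 0.24 in BJAB. In each of these rows every HBL-1 array lay above every BJAB array, and the BJAB mean lay under the 95th percentile of the negative controls.

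The row naming CD22 and MIR5196 gave the largest fitted deficit in HBL-1. CD22 is an inhibitory receptor of B cells that binds sialic acids, and MIR5196 lies in the gene. The row was at 7.34 and 8.21 in HBL-1 with APRIL and 7.52 and 7.25 with EDA, against 14.17 and 13.97 in BJAB with APRIL and 14.24 and 14.08 with EDA. All 4 BJAB arrays lay at about 14 and no HBL-1 array reached 9. The fitted difference was -6.54 (adjusted p = 9.0e-08), against an HBL-1 mean of 7.58 that lay under the 95th percentile of the negative controls.

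The remaining rows with a large deficit in HBL-1 were led by PNKD with MIR6810, with means of 7.20 ± 0.41 in HBL-1 and 12.70 ± 0.24 in BJAB (SD, n = 4, difference -5.50). U1, the spliceosomal RNA that recognises the 5′ splice site, shares a row with its pseudogene RNU1-5P, with means of 3.54 ± 0.19 in HBL-1 and 7.84 ± 0.54 in BJAB (difference -4.30). A brighter row naming RNVU1-18 and the U1 genes RNU1-1 to RNU1-4 averaged 10.82 ± 0.37 in HBL-1 and 13.17 ± 0.11 in BJAB (difference -2.36). MACF1, which links microtubules to actin, with KIAA0754 (-3.86) and the myosin MYO18A with TIAF1 (-3.51) followed, and RefSeq lists the names of each of these rows under 1 gene. ARNT2, a transcription factor of the bHLH-PAS family, with MIR5572 differed by -3.46, and the pseudogenes SNX29P1 and SNX29P2 by -3.45. The snoRNA host SNHG15 with SNORA9 differed by -3.41, ZNF286B with FOXO3B by -3.39 and ANKRD18A with FAM95C by -3.28. Beside the brighter U1 row, SNX29P1 with SNX29P2 had an HBL-1 mean above the 95th percentile of the negative controls, at 9.28, and the HBL-1 means of the other rows of this paragraph lay under it. In the row of U1 with RNU1-5P the BJAB mean lay under it as well. Rows with only small RNAs, histones, immunoglobulin segments or provisional symbols by the patterns used, which do not hold the plain names U1 and 7SK, were counted and not ranked here, namely 22 higher and 6 lower symbol sets.

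By kind, the share of rows that passed between the lines ran from 12.9% in rows of no kind to 34.9% in rows of a longer gene with a small RNA. The median levels of these kinds were 6.04 and 10.03, and the share that passed differed between levels, as given above. The part of level in the shares by kind was not tested. Of the 264 rows with a microRNA beside a longer gene, 45 were higher and 48 lower, beside 4.31% and 4.42% of all rows. The median level of the 264 was 9.03. Of the 86 rows with a small nucleolar or Cajal-body RNA beside its host, 14 were higher and 17 lower, beside the same shares of all rows. The median level of the 86 was 13.9. SNORD50A, SNORD50B and their host SNHG5 averaged 18.44 ± 0.07 in HBL-1 and 16.60 ± 0.14 in BJAB (SD, n = 4, difference 1.84), while SNORA17A, SNORA17B and the host SNHG7 averaged 12.30 ± 0.25 in HBL-1 and 14.01 ± 0.09 in BJAB (difference -1.71).

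Readthrough rows went both ways, with 7 higher and 10 lower of 56. Over all rows 4.31% were higher and 4.42% lower, which stands beside every count of this paragraph. PPT2, a thioesterase of lysosomes, with EGFL8 and their readthrough averaged 8.07 ± 0.29 in HBL-1 and 11.18 ± 0.20 in BJAB (difference -3.11), while MDP1, NEDD8, CHMP4A and NEDD8-MDP1 differed by -1.71. Of 193 rows of neighbouring genes 17 were higher and 24 lower. HM13, the signal peptide peptidase of the endoplasmic reticulum, with MCTS2, a retrogene in its intron, averaged 13.84 ± 0.34 in HBL-1 and 16.96 ± 0.04 in BJAB (difference -3.12). Of 285 rows with a shared symbol root 28 were higher and 19 lower, among them RGPD1 with RGPD2, relatives of the nuclear pore gene RANBP2, at 3.69. Of 29 rows with an antisense or intronic transcript 5 were higher and 3 lower. They included ASPRV1 with PCBP1-AS1 (2.15), ZNF540 with ZNF571-AS1 (-1.45) and SND1 with its intronic transcript SND1-IT1 (1.09). Of the 31 rows in no kind, 3 were higher and 1 was lower, namely the 2 rows of DUXAP10 with LINC01296 (6.73 and 6.72), MAFIP with TEKT4P2 (0.93) and SCAF8 with TIAM2 (-1.17). The MAFIP call was lost in 5 of the 8 fits that left out 1 array, and with the EDA arrays alone both this call (0.56, adjusted p = 0.47) and that of SCAF8 (-1.20, adjusted p = 0.070) were lost. Of 128 rows of small RNAs alone 17 were higher and 24 lower, and of 31 rows with several names of 1 gene 2 were higher and 3 lower.

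Immune genes that the array reads in such rows alone were sought with 13 lists of 730 symbols. There were 46 such symbols, in 29 rows, of which 4 were higher and 2 lower in HBL-1, beside 4.31% and 4.42% of all rows. Many of the symbols were copies of the killer-cell receptor and defensin families. The mean level was under 5 in 13 of the 29 rows. The rows naming TNFRSF1B and CD22, described above, had the largest differences of these rows. The remaining immune rows that passed differed by less than 2 on the log2 scale.

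**Figure D2:**
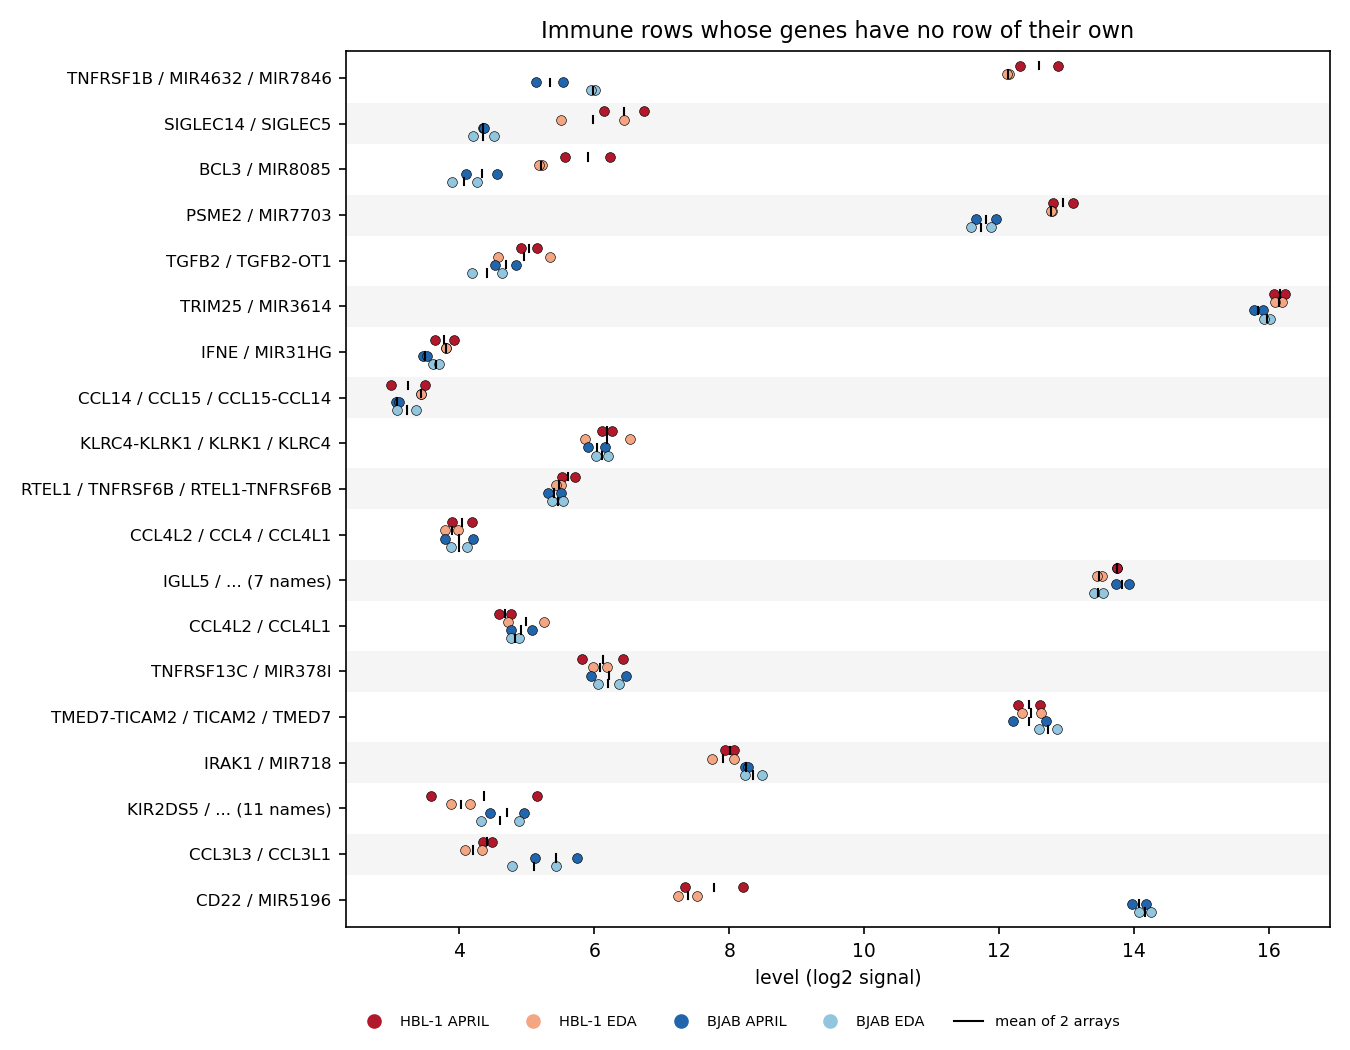
The level (log2 signal, x axis) of 19 immune rows naming several genes is shown for every array, with dots coloured by line and ligand and a bar at the mean of 2 arrays. The rows run from the largest excess in HBL-1 (TNFRSF1B, 6.70) at the top to the largest deficit (CD22, -6.54) at the bottom, and 13 of the 19 were not called.

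SIGLEC5 and SIGLEC14, a paired inhibitory and activating receptor for sialic acids, share a row at 6.14 and 6.73 in HBL-1 with APRIL and 5.51 and 6.44 with EDA, against 4.35 and 4.36 in BJAB with APRIL and 4.51 and 4.19 with EDA. The lines did not overlap, although the HBL-1 arrays spread over more than 1 unit (difference 1.85, adjusted p = 0.00082). BCL3, a nuclear member of the IkB family that acts with NF-kB p50 and p52, shares a row with MIR8085. Its means were 5.55 ± 0.49 in HBL-1 and 4.20 ± 0.28 in BJAB (SD, n = 4, difference 1.35, adjusted p = 0.0023). Like the SIGLEC row it lay under the 95th percentile of the negative controls, and its call was lost with the EDA arrays alone (1.13, adjusted p = 0.061). PSME2, a subunit of the PA28 activator of the proteasome, with MIR7703 averaged 12.86 ± 0.16 in HBL-1 and 11.77 ± 0.18 in BJAB (difference 1.09, adjusted p = 0.0024). CCL3L1 and CCL3L3, extra copies of the chemokine gene CCL3, were lower in HBL-1, at 4.31 ± 0.17 against 5.27 ± 0.42 in BJAB (difference -0.96, adjusted p = 0.020). That row lay under the 95th percentile of the negative controls as well, and its call was lost in 5 of the 8 fits that each left out 1 array, over which the difference ran from -1.12 to -0.79, and with the EDA arrays alone (-0.90, adjusted p = 0.16).

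TNFRSF13C, which encodes the BAFF receptor of B cells, is read here in a row with MIR378I and in no other. The row was at 5.82 and 6.43 in HBL-1 with APRIL and 5.99 and 6.19 with EDA, against 6.48 and 5.95 in BJAB with APRIL and 6.05 and 6.37 with EDA. The arrays of both lines overlapped, and the difference was -0.11 (95% confidence interval -0.56 to 0.35, adjusted p = 0.85). The means, 6.11 in HBL-1 and 6.21 in BJAB, lay under the 95th percentile of the negative controls. By level alone this row cannot be told apart from background in either line. The APRIL receptors have rows of their own, where TNFRSF17 (BCMA) averaged 11.48 in HBL-1 and 6.36 in BJAB. TNFRSF13B (TACI) averaged 10.09 in HBL-1 and 5.29 in BJAB. The BJAB means of TNFRSF17 and TNFRSF13B lay under the same percentile. The decoy receptor gene TNFRSF6B shares a row with its neighbour RTEL1 and their readthrough. That row averaged 5.54 ± 0.12 in HBL-1 and 5.43 ± 0.10 in BJAB, under that percentile in both lines, and was not called.

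Several innate immune genes in brighter rows were not called between the lines. TRIM25, a ubiquitin ligase of the RIG-I pathway, with MIR3614 averaged 16.15 ± 0.08 in HBL-1 and 15.91 ± 0.10 in BJAB (SD, n = 4, difference 0.24, 95% confidence interval -0.09 to 0.58). TICAM2, an adaptor of Toll-like receptor 4, is read with TMED7 and their readthrough, with means of 12.46 ± 0.18 in HBL-1 and 12.59 ± 0.27 in BJAB. IRAK1, a kinase below the Toll-like and interleukin-1 receptors, with MIR718 averaged 7.96 ± 0.15 in HBL-1 and 8.31 ± 0.12 in BJAB (difference -0.35, adjusted p = 0.26). Dim rows that were not called included those of the chemokine copies CCL4, CCL4L1 and CCL4L2 (3.96 in HBL-1 and 3.99 in BJAB), of CCL14, CCL15 and their readthrough (3.33 in HBL-1 and 3.15 in BJAB), of IFNE with MIR31HG (3.79 in HBL-1 and 3.58 in BJAB) and of TGFB2 with TGFB2-OT1 (4.99 in HBL-1 and 4.55 in BJAB). The 9 defensin rows had mean levels between 4.56 and 6.99, and DEFB103A with DEFB103B and DEFB107A with DEFB107B were the brightest of them (differences -0.15 and 0.14). The row of 11 killer-cell immunoglobulin-like receptor symbols (KIR2DS5 and others, difference -0.46) and that of KLRC4, KLRK1 and their readthrough (0.12) were not called.

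The immunoglobulin and T-cell receptor rows numbered 16 and held 64 segment symbols, of which 47, among them the constant genes IGKC, IGLC1 and IGLC2, were named in no row of their own. Of these rows 3 were higher and 2 lower in HBL-1, beside 4.31% and 4.42% of all rows. The kappa row names IGK, IGKC and 17 V segments. It was at 18.90 and 18.89 in HBL-1 with APRIL and 18.96 and 18.98 with EDA, against 16.67 and 16.90 in BJAB with APRIL and 16.76 and 16.77 with EDA. The HBL-1 arrays all lay above the BJAB arrays, and the ligand groups of a line were close together, with a difference between the lines of 2.16 (SE 0.15, adjusted p = 1.4e-05).

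All 17 V segments of the kappa row also have a row of their own, and those rows did not move together. IGKV3-20 was at 17.44 and 17.62 in HBL-1 with APRIL and 17.29 and 17.40 with EDA, against 5.69 and 5.55 in BJAB with APRIL and 6.47 and 6.30 with EDA (difference 11.43). IGKV3-15 (2.15) and IGKV3-11 (1.42) were higher too. In contrast, IGKV1-39 was at 7.50 with APRIL and 7.68 with EDA in HBL-1, against 10.45 with APRIL and 10.37 with EDA in BJAB (difference -2.82). IGKV1-16 (-2.39), IGKV1-9 (-0.98) and IGKV1-6 (-0.87) were lower too, and the other 10 were not called. Of the 2 rows of IGKV1-33 the brighter was used. A further row naming IGKV3D-11 and IGKV3D-15, distal duplicates of the kappa locus, averaged 15.04 ± 0.11 in HBL-1 and 7.71 ± 0.42 in BJAB (SD, n = 4, difference 7.33). Its BJAB mean lay under that percentile as well. V segments of 1 family are alike in sequence, and what part of the 3 higher rows came from probes that bind several of them was not tested.

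**Figure D3:**
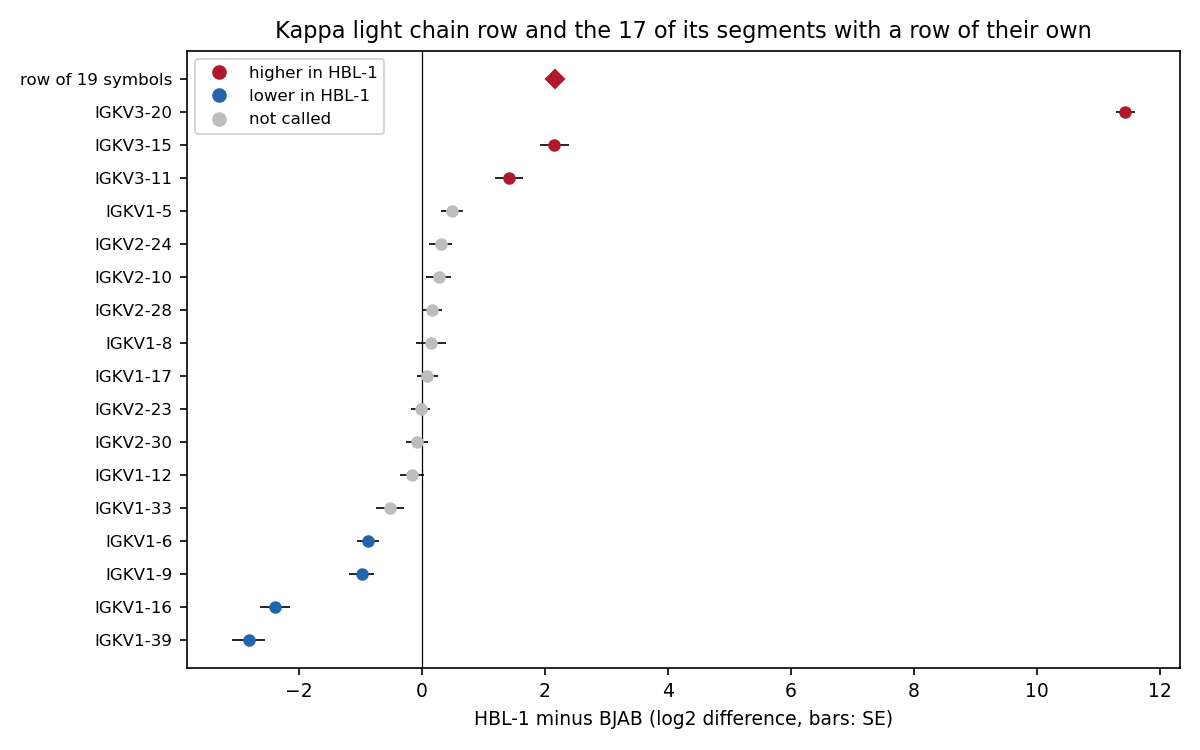
HBL-1 minus BJAB (log2 difference, x axis; bars are SE) is shown for the kappa row of 19 symbols (diamond) and for the 17 of its segments with a row of their own (circles). The row lies at 2.16, IGKV3-20 at 11.43 and IGKV1-39 at -2.82, and grey circles were not called.

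In the lambda locus the row naming IGLL5, MIR5571, IGLC1, IGLC2, IGLV2-5, IGLV3-1 and IGLJ1 was bright in both lines, with means of 13.62 ± 0.16 in HBL-1 and 13.65 ± 0.23 in BJAB (SD, n = 4). Its difference was -0.03 (95% confidence interval -0.37 to 0.30). The row naming BMS1P20, IGLV1-51 and IGLV5-52 was lower in HBL-1, at 9.20 ± 0.42 against 11.12 ± 0.29 in BJAB (difference -1.92), as was the heavy-chain row naming IGHV5-78 and MIR5195 (5.67 ± 0.15 against 7.89 ± 0.27, difference -2.22). The IGHV5-78 row lay under the 95th percentile of the negative controls in the mean of either line. A row of 10 T-cell receptor beta symbols, including the constant genes TRBC1 and TRBC2, was dim in both lines, with means of 4.97 ± 0.25 in HBL-1 and 3.86 ± 0.22 in BJAB (difference 1.11). That call was lost with the EDA arrays alone (0.78, adjusted p = 0.11).

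Host transcripts named for their microRNA formed 20 rows, chosen for description after their values were seen. Of these 4 were higher and 3 lower in HBL-1, beside 4.31% and 4.42% of all rows. MIR9-3HG with MIR9-3 was at 10.21 and 9.76 in HBL-1 with APRIL and 9.34 and 9.06 with EDA, against 5.16 and 5.53 in BJAB with APRIL and 5.11 and 5.25 with EDA. MIR9-2HG with MIR9-2 ran the other way, at 6.18 and 5.73 in HBL-1 with APRIL and 5.73 and 5.17 with EDA, against 8.47 and 8.07 in BJAB with APRIL and 7.45 and 7.86 with EDA. The differences were 4.33 (adjusted p = 4.9e-07) and -2.26 (adjusted p = 9.3e-05), and both loci encode the miR-9-5p printed above. MIR9-1HG, the host at the remaining locus of that microRNA, has a row of its own and differed by -0.93 (adjusted p = 0.038).

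MIR155HG is the host of miR-155, a microRNA of activated B cells. Its row with MIR155 was at 10.25 and 10.60 in HBL-1 with APRIL and 10.23 and 10.01 with EDA. In BJAB the row was at 7.66 and 7.92 with APRIL and 8.37 and 7.74 with EDA. The lines did not overlap (difference 2.35, adjusted p = 4.7e-05). The transcript of MIR17HG carries the miR-17-92 cluster of 6 microRNAs known for promoting lymphoma in mice. Its row, which also names the 6 microRNA genes, was at 7.01 and 5.62 in HBL-1 with APRIL and 6.44 and 5.94 with EDA. In BJAB that row was at 9.53 and 9.43 with APRIL and 9.21 and 9.42 with EDA. HBL-1 was lower by a difference of -3.14 (adjusted p = 8.5e-05), with a wider spread than in BJAB. MIR19B2, which encodes the same mature miR-19b-3p at another locus, has a row of its own and was lower in HBL-1 as well, at 5.97 against 10.53 (difference -4.56), while the row of MIR92A2, which shares mature miR-92a-3p, averaged 6.63 in HBL-1 and 6.69 in BJAB and was not called.

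The host row naming MIR195, MIR497, MIR497HG and ALOX12-AS1 was higher in HBL-1 (8.24 ± 0.68 against 5.87 ± 0.17 in BJAB, SD, n = 4, difference 2.38). MUC20 with SDHAP2, MIR570 and MIR570HG was higher by 1.68, a call lost with the EDA arrays alone (1.41, adjusted p = 0.090), and STRBP with MIR600HG and MIR600 was lower, at 12.49 ± 0.27 in HBL-1 against 14.31 ± 0.07 in BJAB (difference -1.82).

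**Figure D4:**
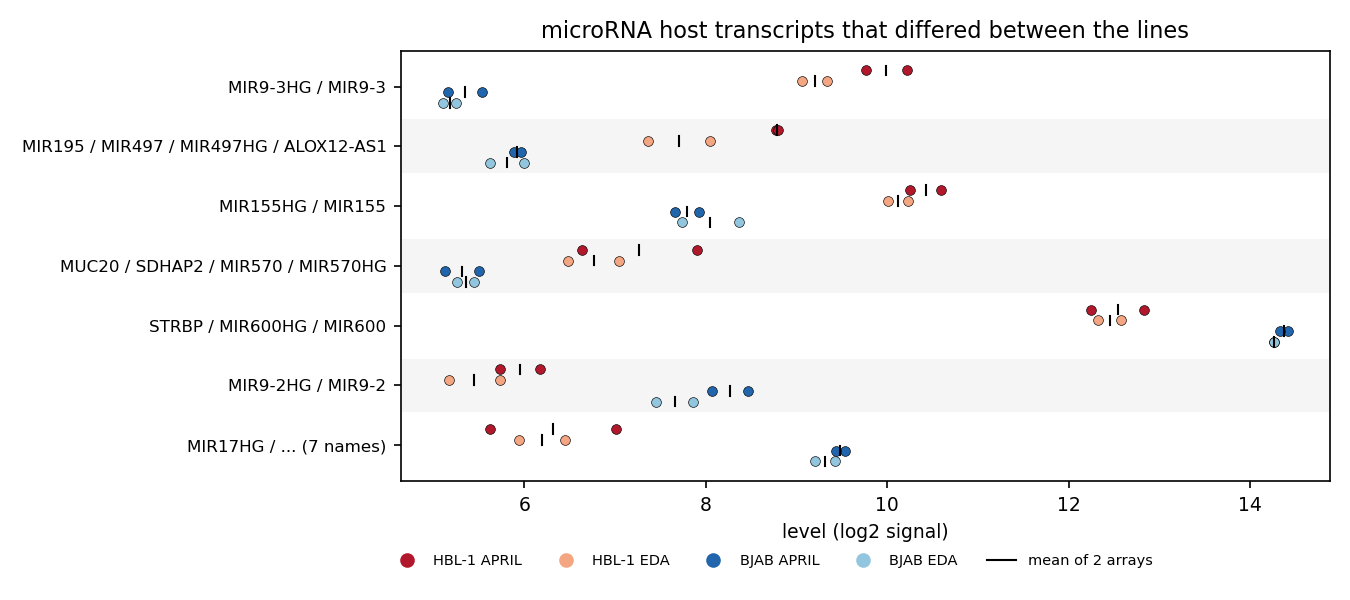
The level (log2 signal, x axis) on every array is shown for the 7 host rows of microRNAs that differed between the lines, with dots coloured by line and ligand and a bar at the mean of 2 arrays. MIR9-3HG lies to the right in HBL-1 and MIR9-2HG to the right in BJAB, with differences of 4.33 and -2.26.

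Rows with the same names need not carry the same value. There were 50 symbol sets with more than 1 row, in 109 rows. In 13 sets the rows had identical values on all arrays, in 44 the line differences of the rows lay within 0.5 of each other, and in 4 they were more than 1 apart. Besides MAGEA9 with MAGEA9B, these were RGPD1 with RGPD2 (3.69 and 1.92), the heat shock genes HSPA1A with HSPA1B (-3.01 and -1.76) and the histone genes H2AC18 with H2AC19 (2.34 and 1.21). All of these differences passed and none changed direction within a set. These 4 sets were named after their values were seen.

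Where a symbol also has its own row, the readouts could be set side by side, taking the brightest where it has several. There were 504 such pairs in 361 rows, and in 66 pairs the values were identical. Over the other 438 pairs the line differences correlated with r = 0.63, as a description across pairs that share rows and possibly probes. The own row was dimmer by 1 or more in 172 of the 438 pairs and brighter by 1 or more in 83. In 126 pairs the row of several names passed, and 17 of these pairs came from the kappa row alone. Of all rows with 1 symbol 18.2% passed between the lines. Among the 126 pairs the own row passed in the same direction in 52, in the opposite direction in 6 and not at all in 68. The opposite ones were 4 segments of the kappa row, ZNF655 (0.83 alone and -1.82 with GS1-259H13.2) and FLJ42627 (-0.92 alone and 0.92 with LOC652276 and PDPK2). TIAM2, a Rac exchange factor, differed by -4.93 alone and by -1.17 with SCAF8. UBA7, the activating enzyme of the ubiquitin-like protein ISG15, was at a mean level of 5.85 alone (-0.07) and of 8.85 with MIR5193, where it was lower in HBL-1 by a difference of -2.65.

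The ligand comparison asked which rows differed between APRIL and EDA in each line. In HBL-1 no row of several names passed, nor did any of the 135750 rows (0%). The smallest adjusted p among the members was 0.60. At an unadjusted p under 0.05 there were 100 members (8.94%), against 7.1% of all rows, of which 93 had a positive difference, against 3.95%, and 7 a negative one, against 3.15%. The APRIL and EDA arrays did not overlap in 432 members, and this held for 34.9% of all rows. Intervals at 95% confidence extended 0.57 to each side in the median row, before any adjustment for the number of rows, so smaller differences could not be told from 0 in such a row.

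The values of the members were shifted slightly upwards with APRIL in HBL-1, and the replicates differed in this. Of 1119 members 846 had a positive difference (75.6%), against 64.0% of rows with 1 symbol and 52.2% of all rows. The median of the members was 0.15, against 0.10 for rows with 1 symbol and 0.02 for all rows. HBL-1 APRIL replicate 2 had a median of 0.26 above the mean of the EDA arrays, with 880 members above it, and replicate 1 had a median of 0.06, with 665 above it. In rows with 1 symbol replicate 2 had a median of 0.19 (24496 of 36176 above) and replicate 1 of 0.02 (18907 above). Over all rows these medians were 0.02 and -0.0025. Without replicate 2 the median of the members was 0.06. After another quantile normalization it was 0.09. The part of that array in the results that follow was not tested further. In BJAB the median was 0.01, and the arrays of the 2 APRIL replicates gave 0.03 and -0.02.

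**Figure D5:**
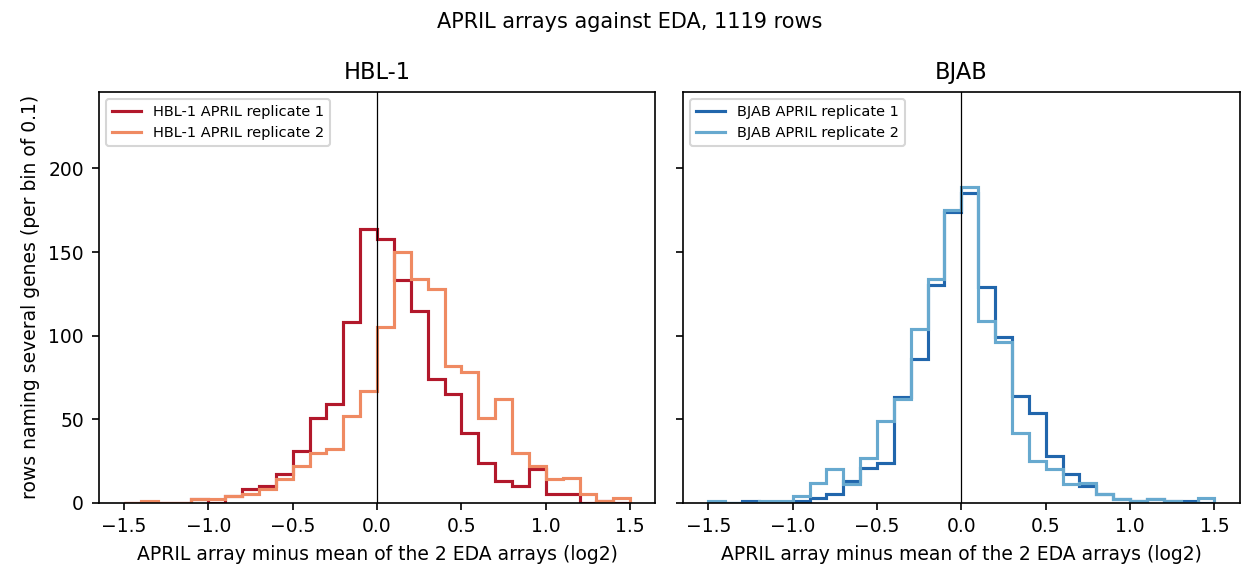
The number of rows naming several genes (y axis, per bin of 0.1, of 1119) is plotted against the difference of each APRIL array from the mean of the 2 EDA arrays of its line (x axis, log2), with HBL-1 on the left and BJAB on the right. HBL-1 APRIL replicate 2 lies to the right of replicate 1, with medians of 0.26 and 0.06, and the BJAB replicates lie close to 0.

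In HBL-1 the rows with the smallest p-values all missed the threshold after adjustment, and 4 of the 5 positive ones name a microRNA. Among the 1119 members 264 name a microRNA beside a longer gene, at a median level of 9.03 against 6.98 for all members. The part of this in the 4 rows was not tested. ARFGAP1, a regulator of the Golgi GTPase ARF1, with MIR4326 was at 11.03 and 11.10 with APRIL, against 9.98 and 9.69 with EDA (difference 1.23, 95% confidence interval 0.65 to 1.81, adjusted p = 0.60). UBA7 with MIR5193 was at 8.31 and 7.85 with APRIL, against 6.89 and 7.05 with EDA (difference 1.11). The APRIL arrays lay above the EDA arrays in both rows. MIR195 with MIR497, MIR497HG and ALOX12-AS1 was at 8.77 and 8.79 with APRIL, against 7.36 and 8.05 with EDA (difference 1.08). UCKL1, related to uridine-cytidine kinases, with MIR1914 was at 8.02 and 8.58 with APRIL, against 7.49 and 6.71 with EDA (1.20). MACROD2 with RPS3P1 had a difference of 1.06 at a dim mean level of 3.96 in HBL-1.

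Among the negative differences in HBL-1, RN7SKP236 with 7SK had the largest size. 7SK is a small nuclear RNA that holds the elongation factor P-TEFb inactive, and RN7SKP236 is one of its pseudogenes. The row was at 6.21 and 5.70 with APRIL, against 7.20 and 6.93 with EDA (difference -1.11, adjusted p = 0.60). In BJAB the same row was at 6.30 and 5.87 with APRIL, against 6.99 and 6.67 with EDA (difference -0.75). All 4 APRIL arrays thus lay below the EDA arrays of their line, in a row chosen by its p-values in these comparisons. The mean difference over both lines was -0.93 (unadjusted p = 0.00083, adjusted p = 0.79). LINC00359 with TULP3P1 (-0.83 in HBL-1 and -0.54 in BJAB) showed the same order at levels between 3.6 and 4.5. TPTE2P6 with PSPC1P2 (-0.79), PGM5P4-AS1 with PGM5P3-AS1 (-0.65) and RN7SKP251 with 7SK (-0.46) completed the negative rows in HBL-1. In BJAB the RN7SKP251 row, which also names 7SK, went the other way (difference 0.41), with the APRIL arrays above the EDA arrays.

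In BJAB no member passed (0% of all rows), and 37 members (3.31%) had an unadjusted p under 0.05, against 4.26% of all rows. Of these 24 were positive, against 2.24%, and 13 negative, against 2.02%. The APRIL and EDA arrays did not overlap in 375 members, and this held for 33.8% of all rows. The defensin-related pseudogenes DEFT1P and DEFT1P2 were at 4.52 and 4.79 with APRIL, against 3.50 and 3.82 with EDA (difference 1.00). WDR45 with PRAF2 (0.96), where WDR45 acts in autophagy, ASAP1 with ASAP1-IT2 (0.78) and GUSBP3 with SMA4 (0.63) were the other positive rows given here. The negative rows, beside those of RN7SKP236 with 7SK and of LINC00359 with TULP3P1, were MIRLET7BHG with MIRLET7A3, MIRLET7B and MIR4763 (-0.81), DGCR2 with DGCR11 (-0.65) and LINC01260 with KCNK15-AS1 (-0.65). The let-7 host row was at 4.91 and 4.60 with APRIL, against 5.86 and 5.27 with EDA.

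On average over both lines no member passed either (0% of all rows), and 89 had an unadjusted p under 0.05, against 6.03% of all rows. Of these 75 were positive, against 3.3%, and 14 negative, against 2.72%. UCKL1 with MIR1914 (0.90), UBA7 with MIR5193 (0.80), MACROD2 with RPS3P1 (0.76), the snoRNA row of SNORD108, SNORD64 and PWAR5 (0.57) and CCDC186 with MIR2110 (0.55) had the smallest p-values among the positive ones. The row of CCDC186, a protein of dense-core vesicle formation, was at 10.95 and 11.02 in HBL-1 with APRIL, against 10.37 and 10.24 with EDA, and at 10.05 and 10.04 in BJAB with APRIL, against 9.67 and 9.58 with EDA. Its APRIL arrays lay above the EDA arrays in both lines, in a row likewise chosen by its p-value. The negative rows, besides those of RN7SKP236 with 7SK and of LINC00359 with TULP3P1, were the let-7 host row (-0.68), LINC01260 with KCNK15-AS1 (-0.48) and TPTE2P6 with PSPC1P2 (-0.41).

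The test of the difference between the responses of the lines also called no member (0% of all rows), with a smallest adjusted p of 0.96. An unadjusted p under 0.05 was found in 47 members, against 5.18% of all rows. Of these 42 were positive, against 2.8%, and 5 negative, against 2.37%. RNASE11 with RNASE12 (1.59), PLGLB1 with PLGLB2 (1.42), ARFGAP1 with MIR4326 (1.25), AEBP1 with MIR4649 (1.22) and DGCR2 with DGCR11 (1.17) had the smallest p-values among these. The negative ones included ACBD6 with LHX4-AS1 (-1.35), DEFT1P with DEFT1P2 (-1.07), RN7SKP251 with 7SK (-0.87) and TPTE2P6 with PSPC1P2 (-0.76). The contrast shares its arrays with both ligand comparisons, and HBL-1 APRIL replicate 2 enters it as well.

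None of the 29 immune rows passed in a ligand comparison. Of these rows 2 in HBL-1 and 1 in BJAB had an unadjusted p under 0.05, beside 7.1% and 4.26% of all rows, so these rows give no result of their own. The differences of the 29 rows ran from -0.38 to 0.70 in HBL-1 and from -0.64 to 0.36 in BJAB. BCL3 with MIR8085 was at 5.57 and 6.23 in HBL-1 with APRIL, against 5.22 and 5.19 with EDA (difference 0.70, 95% confidence interval 0.05 to 1.34, adjusted p = 0.69), and IRAK3 with MIR6502, named after its value was seen, had a difference of 0.64 (adjusted p = 0.70). The TNFRSF1B row had a difference of 0.47 in HBL-1 and of -0.64 in BJAB, and the APRIL arrays lay above the EDA arrays in HBL-1 and below them in BJAB. Its difference between the lines' responses was 1.11 (95% confidence interval 0.29 to 1.93, unadjusted p = 0.014, adjusted p = 0.96). CD22 with MIR5196 (0.39 in HBL-1 and -0.09 in BJAB) and TNFRSF13C with MIR378I (0.03 in HBL-1 and 0.00 in BJAB) were not called.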

How the data were processed

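Labelled RNA of each sample was hybridised to 1 single-colour array. The authors deposited log2 values, made by RMA using Affymetrix Expression Console according to the labels' processing notes (per the submitters' processing notes, with no versions). The annotation release and genome build are not given in the sources used here. Of 138745 rows, 2995 controls were left out, recognised by their identifiers. Rows with several symbols in the platform annotation were kept as members. Kinds were set from symbols and from RefSeq (GRCh38.p14), to which 2327 of 2334 symbols matched.

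A model with a mean for each of the 4 groups was fitted to every row by limma 3.58.1 (lmFit and eBayes, R 4.3.3), with 4 residual and 5.28 prior degrees of freedom. Two-sided p-values were adjusted by Benjamini and Hochberg's method over 135750 rows, with a threshold of 0.05. HBL-1 was compared with BJAB over both ligands, and APRIL with EDA in each line, on average and between lines. The fit was tested on simulated data. Arrays give no read depth, and their number limits the precision.

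The members, lists and tests were chosen with earlier results of these data known. Rows named between the lines are the 10 largest differences in each direction among those that passed with lines that do not overlap, leaving out segments, histones, small RNAs and provisional symbols, and taking the row with the highest mean where several rows share a symbol set. For each ligand contrast they are the 5 smallest p-values in each direction, with the same kinds left out, of which 1 row is not reported here. Up to 3 rows of each kind and up to 4 of each immune list were named as well. Host rows, segment rows and rows with equal names were described after their values were seen. Alternatives changed the filter, scaling, fit, arrays and replicate block. The samples share only a number: differences between replicates correlated between groups at -0.004 to 0.03.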

Additional observations from a re-analysis of the deposited data

How the results depend on the processing

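Under the other filters, scalings and fits that compared the lines over all 8 arrays, 271 to 356 rows differed, beside 290. Leaving out 1 array gave 231 to 261, with the lowest count without BJAB APRIL replicate 1. With the lines compared over the 4 EDA arrays alone, and the spread still estimated from all 8 arrays, 190 passed (80 higher and 110 lower). Of these 189 were among the 290. With the replicate number as a block 271 passed, 270 of them among the 290, and 0 in each ligand comparison. Counting rows with identical values once, a choice made after seeing the data, gave 268. No ligand comparison called a member under any alternative run.

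Of 57 named results that passed, 51 passed under every alternative run. Many of them were named for large differences or small p-values on the same 8 arrays. Their passing again is therefore no independent support. With the EDA arrays alone the rows of CCL3L3 and CCL3L1 (-0.90), BCL3 (1.13), MUC20 (1.41), MAFIP (0.56), SCAF8 (-1.20) and T-cell receptor beta (0.78) did not pass, in a comparison of fewer arrays. The CCL3L3 and MAFIP rows also missed the threshold in 5 of 8 fits that left out 1 array. Some differences near 0, none called, changed sign. With the EDA arrays alone the row of CCL4L2 and CCL4L1 was at 0.16 and the IGLL5 row at 0.014. When 1 array was left out the difference ran from -0.039 to 0.31 for DEFB107A and DEFB107B, from -0.052 to 0.28 for KLRC4 and KLRK1, from -0.13 to 0.074 for CCL4, CCL4L1 and CCL4L2, from -0.18 to 0.091 for CCL4L1 and CCL4L2, from -0.26 to 0.047 for TNFRSF13C and from -0.082 to 0.019 for IGLL5. The cause was not tested. With 2 arrays a group, the 95% interval of a difference within a line extended 0.57 to each side in the median row.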
